A study of Mus musculus with 11 samples.

Results

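At embryonic day 16 (E16), 121 of 7961 cochlear cells met a gate on Matn4, the matrilin gene by which inner phalangeal cells (IPhCs) are marked, out of 30634 cells in the whole series. A cell was taken when its deposited value, the natural log (ln) of 1 plus a gene's unique molecular identifiers (UMIs) per 10000 in that cell, was at least 2.0 for Matn4, under 2.5 for Npy and under 3.5 for Oc90, and when it held no UMI of Pou4f3 or Ccer2. Npy marks inner pillar cells, Oc90 the roof of the duct, and Pou4f3 and Ccer2 hair cells. The cells came from CD1 mice of wildtype genotype. Cochlear sensory epithelium was isolated with thermolysin, dissociated (with papain according to the labels, with trypsin according to the methods) and captured on the 10x Genomics Chromium system. The series holds 11 libraries, of which 3 are of E16, 4 of postnatal day 1 (P1), 2 of E14 and 2 of P7, and the methods state that each collection pooled the cochleae of several animals of a single litter. No treatment, transgene or Cre was used in any group.

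IPhCs are supporting cells that wrap the inner hair cells on the medial side of the organ of Corti. They are thought to descend, like inner hair cells, from the medial part of the prosensory domain, where Notch ligands on nascent hair cells hold their neighbours in a supporting cell fate. In the mature organ they clear glutamate around the inner hair cell synapses and are coupled to other supporting cells by gap junctions. Their medial neighbours are the cells of Kolliker's organ, a transient ridge of columnar epithelium, and their lateral neighbours are the inner pillar cells.

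The 3 E16 libraries, replicates 1, 2 and 3, held 21, 28 and 72 members among 1247, 2813 and 3901 cells, which is 1.68%, 0.995% and 1.85% of each. Members had a median of 1981, 2352 and 3019 UMIs, against 2426, 2457 and 2722 for the other cells without Pou4f3 and Ccer2, so that members were the shallower class in replicates 1 and 2 and the deeper class in replicate 3. Summed over members, the 3 libraries gave 50173, 71152 and 234864 UMIs. Members of replicate 3 therefore carried most of the reads, and low genes were measured best there. Between 6 and 13 cell barcodes were shared by any 2 of the 3 libraries. The barcodes of 3 members recurred in another library, in no case as a member of both. Of the 149 E16 cells with more than 3000 genes, which can be doublets, 0 were members.

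**Figure D1:**
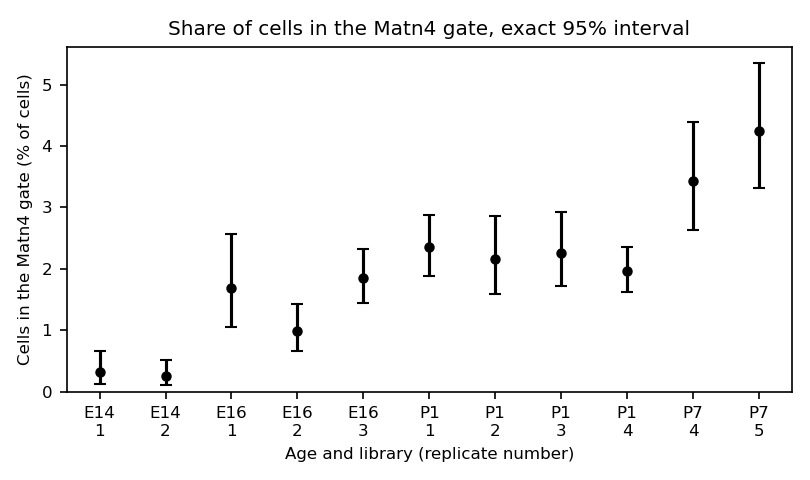
Percent of cells in the Matn4 gate (y axis) in each library, grouped by age and replicate number (x axis); points are libraries and bars are exact 95% binomial intervals, which cover counting error only. The E16 libraries lie at 1.68%, 0.995% and 1.85%, and the P1 libraries between 1.96% and 2.35%.

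Matn4 chose these cells, so its level is a description. It stood at 1755, 2081 and 2142 CPM (UMIs per 1000000, as the mean of a class's cells in one library) in members and at 7.83, 13.0 and 10.7 CPM in all other cells. Members held a median of 4 Matn4 UMIs, the highest 30, while 3 members entered with 1 UMI and 24 with 2. At the threshold, the 17 cells with Matn4 from 2.0 to under 2.2 averaged 451 CPM of Fabp7 and 1275 CPM of Anxa5, and the 30 cells just outside, from 1.8 to under 2.0, averaged 202 and 759 CPM. In the same order, Gjb2 averaged 2082 and 1823 CPM, Hes5 241 and 296 CPM, and Fgf20 0 and 16.8 CPM, so that these genes did not all step down at the threshold. Of the 142 E16 cells at or above the Matn4 threshold, 19 were left out for Pou4f3 or Ccer2, 1 for Npy and 1 for Oc90.

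The label was checked against the other marker genes. The study named Fabp7, Anxa5, Gjb2 and Hes5 among its leading genes of E16 inner phalangeal cells from these same libraries. Their levels are therefore not independent evidence of the label. Fabp7, a lipid-binding protein of radial glia and supporting cells, was found in 49.6% of members (60 of 121, exact 95% interval 40.4% to 58.8%) once every cell had been drawn down to 1500 of its UMIs, and in 1.54% of all other cells (56.2% and 2.41% without drawing down, at median depths of 2750 and 2649 UMIs). In Tecta and Col9a1-gated cells of lateral Kolliker's organ the share was 0.355% at a median depth of 2550 UMIs. These cells had values of at least 2.0 for both genes and no UMI of Matn4, Calb1 or Fgfr3, and otherwise met the members' conditions. Cells with some Matn4 under 2.0, which this choice leaves out, averaged 95.5 CPM of Fabp7. At P1 the paper placed FABP7 in Kolliker's organ cells beside the organ of Corti. The share therefore does not show that lateral Kolliker's organ lacks Fabp7. Fgf20, the ligand of the medial prosensory domain, was found in 7.44% of members (9 of 121) against 0.943% of the other cells (11.6% and 1.42% without drawing down). Npy-gated cells gave 9.90% for Fabp7 and 4.95% for Fgf20 at a median of 3540 UMIs, and the latter lies within the exact 95% interval of the members' share (3.46% to 13.7%). Fabp7 thus marked the gated cells more clearly than Fgf20 did, and about as many members lacked a Fabp7 UMI as held one at this depth. Of the other cells, 1 was too shallow to be drawn down.

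The first comparison asked which genes set the members apart from all other E16 cells without Pou4f3 and Ccer2, of which there were 6685, with 1 profile per class and library and library as a block (limma on log2(CPM + 10)). Of 8752 genes tested, 121 were higher in members and 101 were lower at an adjusted p under 0.05, which is 1.38% and 1.15% of them. The median log2 fold change over all genes was -0.14, and changes are to be read against it. The largest rises were those of Fabp7, Fgf3, Ednrb, Wfdc12, Tdrd12 and Slitrk6, and the largest falls those of Ttr, Igf2, Gpc3, Calb1, Fn1 and Igf1. Of these falls, those of Ttr (adjusted p = 0.559), Gpc3 (0.0821) and Fn1 (0.0589) did not pass without replicate 3. Libraries weighed on these counts: without replicate 2 they were 58 and 32, without replicate 3 59 and 28, and without the library block 25 and 3. In this comparison, and in those with Tecta and Col9a1-gated and with Fgf20-gated cells, limma took each gene's variance wholly from genes of like level, so that an adjusted p does not hold the gene's own spread over libraries. The values by library are therefore given beside it.

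Fabp7 stood at 887, 827 and 1043 CPM in members and at 36.7, 92.1 and 12.8 CPM in the other cells, a log2 fold change of 4.28 (SE 0.29, adjusted p = 1.14e-46). No library of the 2 groups overlapped, which was so for 7.1% of all genes with members higher and 10.4% with members lower. Anxa5, a calcium-dependent phospholipid-binding annexin, stood at 1518, 1564 and 3715 CPM against 327, 297 and 460 CPM (log2 fold change 2.51, SE 0.16, adjusted p = 5.52e-52). It was the only one of the 4 annexins tested that passed, and replicate 3 was the highest library in both groups. Socs2, an inhibitor of cytokine receptor signalling, stood at 1344, 1881 and 1333 CPM against 354, 312 and 257 CPM (log2 fold change 2.26, SE 0.17). S100a1, a calcium-binding protein known from lateral supporting cells, stood at 1167, 2201 and 2691 CPM against 527, 446 and 483 CPM (log2 fold change 1.95, SE 0.15). All 3 members' libraries were above all 3 of the other cells for each of these genes.

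Among genes with a lower level, Slitrk6, a transmembrane protein with a role in inner ear innervation, averaged 266 ± 45.1 CPM (SD, n = 3) in members and 26.3 ± 6.88 CPM in other cells. The serine protease gene Prss23 averaged 834 ± 83.9 against 115 ± 19.8 CPM. Ednrb, the endothelin receptor of neural crest and melanocyte development, stood at 267, 103 and 90.5 CPM against 1.87, 7.78 and 3.07 CPM, with the highest level in replicate 1 (log2 fold change 3.39, SE 0.56, adjusted p = 3.5e-07). Tdrd12 averaged 201 ± 76.6 against 13.6 ± 2.2 CPM, and Smpdl3a, a phosphodiesterase, 194 ± 75.6 against 18.2 ± 1.27 CPM. Trh, the thyrotropin-releasing hormone gene, was found at 52.4, 84.2 and 70.9 CPM in members and at 0 to 0.761 CPM elsewhere. Its call was lost without replicate 2 (adjusted p = 0.123) or replicate 3 (adjusted p = 0.325). Wfdc12 lost its call in the same way (adjusted p = 0.0553 and 0.18), as did Slc6a14 (0.156 and 0.454), and that of Sapcd2 was lost without replicate 3 (0.316).

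**Figure D2:**
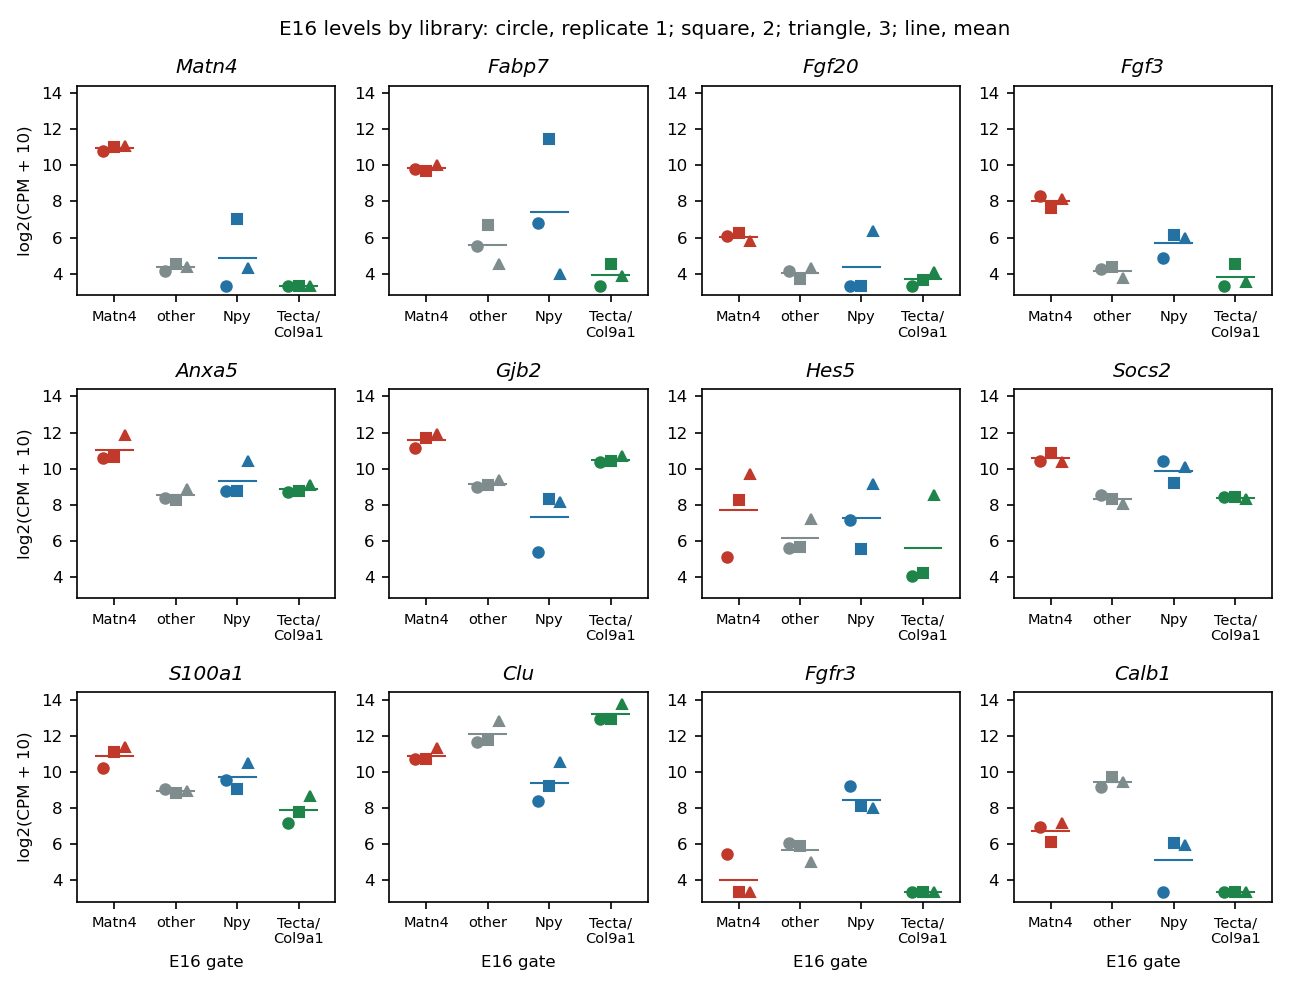
Level of 12 genes as log2(CPM + 10) (y axis) in 4 gated classes of E16 cells (x axis), 1 symbol per library and a line at the mean. Fabp7 and Fgf3 are high in the Matn4-gated cells of all 3 libraries, Fabp7 is also high in the Npy-gated cells of replicate 2, and Hes5 differs widely between libraries in every class.

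Notch genes were then examined, since Notch signalling holds supporting cells apart from hair cells. Of 12 ligands, receptors and Fringes, 6 were tested, 2 were higher in members and 0 lower, with a median log2 fold change of 0.41. Jag1, the ligand of the prosensory domain and supporting cells, stood at 249, 413 and 285 CPM in members and at 87.1, 74.2 and 60.3 CPM elsewhere (log2 fold change 1.94, SE 0.32, adjusted p = 2.96e-07). Lfng, a glycosyltransferase that modifies Notch receptors, stood at 110, 232 and 274 CPM against 76.3, 73.1 and 59.0 CPM (log2 fold change 1.35, SE 0.36), but did not pass without replicate 2 (adjusted p = 0.256) or 3 (adjusted p = 0.724). Notch1 was at 132, 127 and 103 CPM in members, with a log2 fold change of -0.00. The ligands Dll1, Dll3 and Dll4 were at 0 UMIs in the members of all 3 libraries. They averaged under 10 CPM over both groups and were not tested, and cells with Pou4f3 or Ccer2 had been left out of both. The zeros therefore do not set members apart.

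Of 7 Notch target genes tested, Hes5 alone passed, and the median log2 fold change of the 7 was 0.79. Hes5 encodes the repressor by which Notch activity in supporting cells is commonly read. It stood at 24.3, 302 and 826 CPM in members and at 39.0, 41.2 and 136 CPM in other cells, so that members were higher in replicates 2 and 3 and lower in replicate 1 (log2 fold change 1.54, SE 0.36, adjusted p = 0.00196). In replicate 1 a Hes5 UMI was found in 1 of 21 members, and 0 of 21 after drawing down, which allows a share of up to 16.1% (upper bound of the exact 95% interval). This bound is on members with a UMI found at that depth, not on members that express the gene. Without replicate 2 the adjusted p was 0.597, and without replicate 3 it was 0.81. Heyl stood at 27.8, 134 and 71.5 CPM in members against a mean of 11.6 CPM, a log2 fold change of 1.88 that did not pass (adjusted p = 0.0576). Hey1 (log2 fold change 0.86, adjusted p = 0.0711) and Hes1 (0.12, adjusted p = 0.897) did not pass either. Hes1 ranged from 145 CPM in replicate 1 to 2127 CPM in replicate 3 within members.

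Fabp7, Hes5 and Lfng are shown by the 250 bases before their annotated start (RefSeq, GRCm38.p6), because Hes5, Lfng and, in radial glia, Fabp7 are known as genes that answer to Notch. Capitals mark TGGGAA or its reverse complement TTCCCA, the core letters recognised by RBPJ, the DNA-binding partner of Notch. The windows are chr10:57784673-57784922 (plus strand) for Fabp7, chr4:154960673-154960922 (plus strand) for Hes5 and chr5:140607091-140607340 (plus strand) for Lfng.
Fabp7: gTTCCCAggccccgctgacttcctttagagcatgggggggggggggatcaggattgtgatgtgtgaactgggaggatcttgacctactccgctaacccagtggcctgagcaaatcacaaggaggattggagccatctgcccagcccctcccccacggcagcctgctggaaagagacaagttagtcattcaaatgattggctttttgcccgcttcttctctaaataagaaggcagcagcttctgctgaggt
Hes5: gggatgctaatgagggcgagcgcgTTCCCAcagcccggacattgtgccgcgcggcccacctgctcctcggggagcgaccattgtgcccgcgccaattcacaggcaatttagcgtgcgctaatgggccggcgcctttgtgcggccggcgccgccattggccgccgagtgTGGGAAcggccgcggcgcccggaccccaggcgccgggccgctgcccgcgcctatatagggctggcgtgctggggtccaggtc
Lfng: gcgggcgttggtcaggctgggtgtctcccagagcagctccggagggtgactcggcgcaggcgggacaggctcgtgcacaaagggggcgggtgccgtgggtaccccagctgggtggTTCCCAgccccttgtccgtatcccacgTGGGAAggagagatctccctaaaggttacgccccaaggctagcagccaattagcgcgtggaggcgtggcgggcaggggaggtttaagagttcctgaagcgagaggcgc
Hes5 and Lfng each held 2 matches and Fabp7 held 1. The Jag1 window of the same length held 0. Of 20 windows read for 17 genes (15 genes of the Notch lists, Fabp7 and Matn4, without Hes1, Hey1, Heyl and Mfng), 5 held a match, the others being those of Hey2 and 1 of 2 for Matn4, while Nrarp and both windows of Hes6 held 0. A match on either strand was present in 7094 of 32851 such windows (21.6%), so that the letters alone are common.

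FGF genes included one of the largest rises. Fgf3, a ligand needed for inner ear induction, stood at 310, 190 and 269 CPM in members and at 8.93, 10.5 and 3.49 CPM elsewhere (log2 fold change 3.91, SE 0.47, adjusted p = 4.73e-14). It was found in 24% of members and 0.868% of other cells after drawing down. The paper named Fgf3, together with Lgr5, as a known marker of row 3 Deiters' cells and found it restricted to them at P1. The gate held no condition on Deiters' cells, and their part in the Fgf3 level of members was not tested. Fgf20 stood at 57.9, 66.2 and 45.8 CPM against 7.76, 3.24 and 9.46 CPM. These libraries did not overlap, but the log2 fold change of 1.99 (SE 0.63) did not pass over all genes (adjusted p = 0.0617). Of the 8 ligands and receptors tested, Fgf3 was higher and the receptor gene Fgfr1 lower (111, 0 and 30.3 CPM against 103, 112 and 99.9 CPM, so that replicate 1 lay above). The call of Fgfr1 was lost without replicate 2 or 3, with a largest adjusted p of 0.929 over all alternatives. Fgfr3, the receptor of pillar and Deiters' cells, was at 33.3, 0 and 0 CPM. Fgf8, the ligand of inner hair cells, was at 0 in all 3 and too low over both groups to be tested.

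Neurotrophin and growth arrest genes followed. Ntf3, the neurotrophin of cochlear supporting cells, stood at 216, 372 and 356 CPM against 84.6, 110 and 77.3 CPM (log2 fold change 1.67, SE 0.31, adjusted p = 1.03e-05), while Bdnf was found in replicate 3 alone, at 21.0 CPM. Cdkn1b, whose product p27Kip1 holds prosensory cells out of the cell cycle, stood at 201, 144 and 124 CPM against 45.5, 46.0 and 38.3 CPM (log2 fold change 1.62, SE 0.41). It did not pass without replicate 2 (adjusted p = 0.0659) or replicate 3 (adjusted p = 0.164). Lockd, a noncoding RNA transcribed next to Cdkn1b, stood at 556, 416 and 568 CPM against 117, 112 and 78.0 CPM (log2 fold change 2.22, SE 0.27). Cdkn1c, a related inhibitor, was lower in members (600, 172 and 415 CPM against a mean of 950 CPM, log2 fold change -1.40). Of 12 cell division genes tested, 0 were higher and 0 lower by limma, and 1 of the 12 had an unadjusted p under 0.05, as had 916 of all 8752 genes tested. Levels were uneven between libraries, as for Ube2c, which stood at 270 CPM in replicate 1 against 0 and 8.89 CPM in replicates 2 and 3.

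Of 14 prosensory and supporting cell transcription factors tested, Sox2 and Gata3 were higher and 0 were lower (median log2 fold change 0.32). Sox2, required for the prosensory domain, stood at 293, 395 and 327 CPM in members and at 123, 101 and 88.8 CPM elsewhere (log2 fold change 1.61, SE 0.29, adjusted p = 7.53e-06). Gata3 averaged 795 ± 256 against 414 ± 64.1 CPM and did not pass without replicate 2 (adjusted p = 0.657). Prox1, the factor of pillar and Deiters' cells, stood at 0, 0 and 1.97 CPM. Among 14 Wnt genes tested, Lgr5 and Sp5 were higher. Lgr5, the receptor of supporting cells that can divide again after birth, stood at 133, 136 and 133 CPM against a mean of 46.5 CPM (log2 fold change 1.39, SE 0.42, adjusted p = 0.0359), and the call was lost without replicate 2 (0.261) or 3 (0.7). Sp5 did not pass without replicate 3 (adjusted p = 0.571), so that neither was called there. Lgr5 is, like Fgf3, a marker of row 3 Deiters' cells in the paper, and the part of such cells in its level was not tested.

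Of 12 genes of TGF-beta and BMP signalling tested, Tgfb2, Fstl1, Id3, Id4 and Inhba were higher and 0 were lower, while the median log2 fold change of the 12 was 0.14. Id4, an inhibitor of bHLH factors, stood at 817, 1252 and 1078 CPM against 196, 216 and 258 CPM (log2 fold change 2.17, SE 0.20, adjusted p = 2.77e-24). Fstl1, a secreted follistatin-like protein, stood at 2259, 3512 and 2133 CPM against 887, 1005 and 713 CPM (log2 fold change 1.57, SE 0.13). Inhba, an activin subunit, stood at 117, 45.7 and 165 CPM against a mean of 17.0 CPM and did not pass without replicate 3 (adjusted p = 0.765). Tgfb2 and Id3 did not pass without replicate 2 (adjusted p = 0.123 and 0.102). Among 8 insulin-like growth factor genes tested, the binding protein Igfbp3 was higher (711, 983 and 601 CPM against 269, 276 and 130 CPM) and both ligands were lower. Igf1 stood at 55.4, 77.5 and 82.0 CPM against 524, 446 and 250 CPM (log2 fold change -2.30, SE 0.31).

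**Figure D3:**
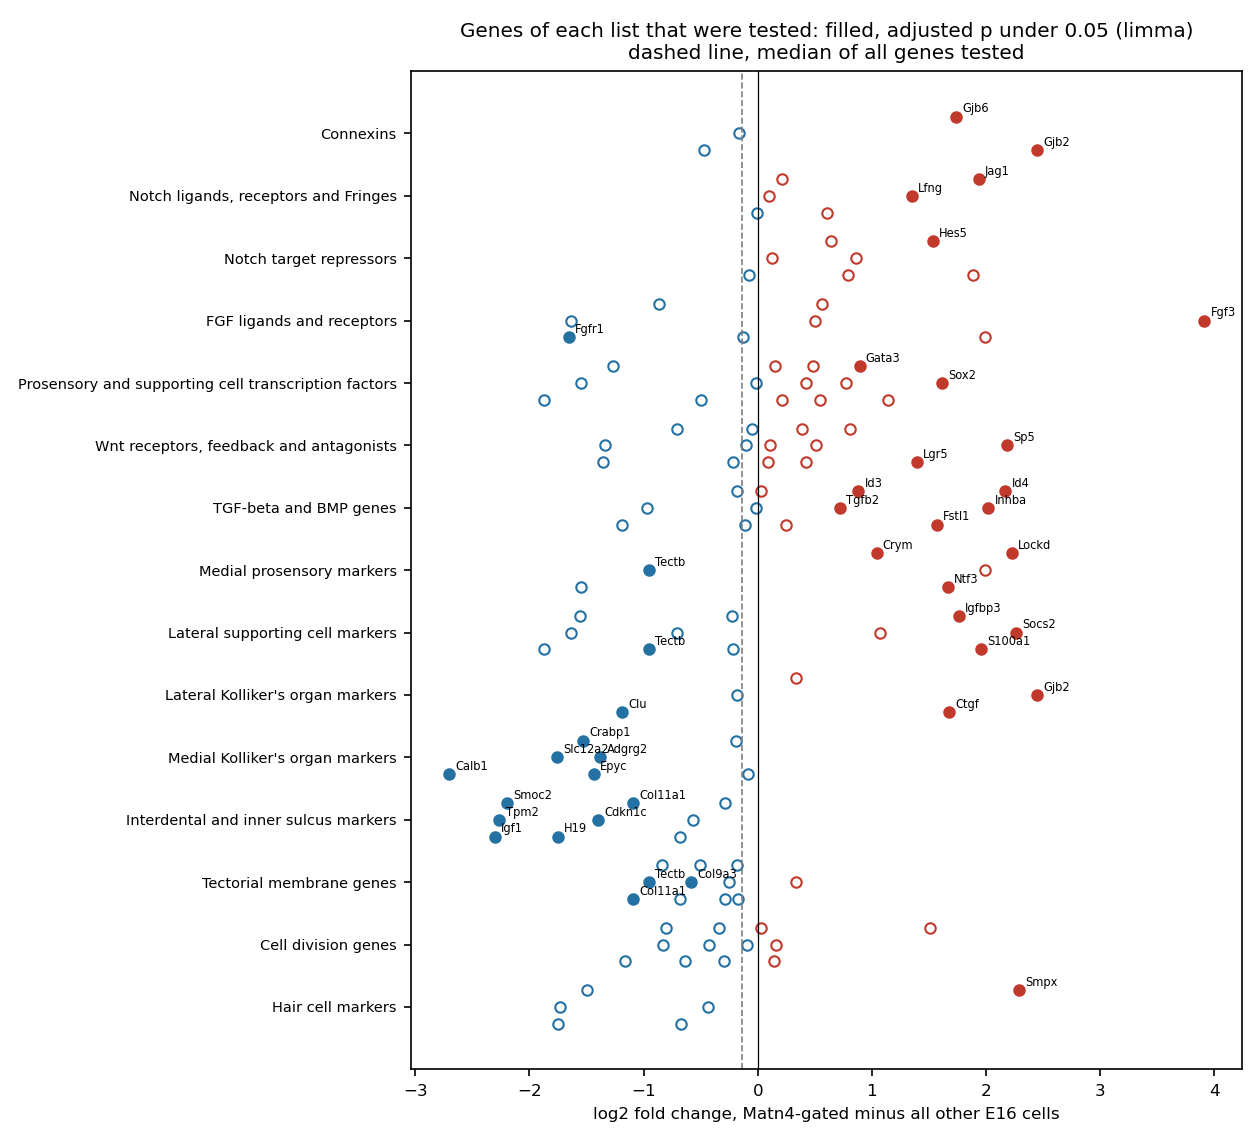
Log2 fold change of the Matn4-gated cells against all other E16 cells (x axis) for every tested gene of 15 lists (y axis); filled points passed the adjusted p threshold and are named, open points did not, and the dashed line is the median of all genes tested, -0.14. Calls in the Notch, connexin and TGF-beta lists lie to the right and calls in the medial Kolliker's organ and interdental lists to the left.

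Gap junction genes were examined next. Gjb2, which encodes connexin 26, stood at 2233, 3299 and 3929 CPM against 489, 528 and 656 CPM (log2 fold change 2.45, SE 0.13, adjusted p = 3.33e-69). A Gjb2 UMI was found in 88.4% of members and 42.8% of other cells after drawing down. Gjb6, its partner connexin 30, was far lower, at 59.0, 202 and 294 CPM against a mean of 39.8 CPM (log2 fold change 1.73), and did not pass without replicate 2 (adjusted p = 0.257) or 3 (adjusted p = 0.685). Levels of different genes are given per UMI and were not scaled by transcript length. Of 9 connexin genes, 4 were tested and these 2 were higher.

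Glutamate handling genes are the defining equipment of mature IPhCs. Of 10 in the list, 7 were tested and Fabp7, which the list also holds, was the only one that passed. Slc1a3, the glutamate transporter GLAST, stood at 226, 61.5 and 174 CPM in members and at 73.4, 72.4 and 65.1 CPM in other cells, so that replicate 2 lay below and replicates 1 and 3 above (log2 fold change 0.86, SE 0.38, adjusted p = 0.328). Glul, glutamine synthetase, stood at 241, 102 and 257 CPM against a mean of 133 CPM. The transporter genes Slc1a1 and Slc1a2 were at 0 in all 3 libraries of members. Both averaged under 10 CPM over both groups and were not tested, so the zeros do not set members apart.

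Genes of medial Kolliker's organ were lower in members, 5 of 7 tested, with a median log2 fold change of -1.44. Without replicate 2, Adgrg2 (adjusted p = 0.861) and Slc12a2 (0.0507) did not pass, which left 3 of 7, and Adgrg2 was lost without replicate 3 too (0.0658). Calb1, a calcium buffer, stood at 112, 58.5 and 132 CPM against 552, 830 and 685 CPM (log2 fold change -2.70, SE 0.26, adjusted p = 6.6e-23). Epyc, a small proteoglycan, stood at 1719, 680 and 527 CPM against a mean of 2336 CPM, and Crabp1, a retinoic acid-binding protein, averaged 227 ± 147 against 601 ± 131 CPM. Of 9 interdental and inner sulcus markers tested, 6 were lower and 0 higher, and Tpm2 and Col11a1 among them did not pass without replicate 2 (adjusted p = 0.455 and 0.808) or 3 (0.666 and 0.0594). Of 11 tectorial membrane genes tested, Tectb, Col9a3 and Col11a1 were lower and 0 higher, with Tecta at 607, 645 and 949 CPM in members against a mean of 569 CPM. Without replicate 2 (adjusted p = 0.129, 0.129 and 0.808) or replicate 3 (0.0625, 0.694 and 0.0594) 0 of the 3 passed in limma, and Tectb did not pass without replicate 1 either (0.381). The lists of medial Kolliker's organ, interdental and prosensory markers were drawn partly from the study's tables on these libraries and are not independent evidence. Among 6 medial prosensory markers tested, Crym, Lockd and Ntf3 were higher and Tectb was lower, and Crym was at 947 CPM in replicate 1 against 245 and 217 CPM and did not pass without replicate 1 (adjusted p = 0.801).

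Markers of other cell types in members were as follows. Among 11 lateral supporting cell markers tested, S100a1, Igfbp3 and Socs2 were higher and Tectb was lower, with a median log2 fold change of -0.23. Fabp7 is also in the list of Hensen's cell markers, of which 6 were tested. It alone was higher and 0 were lower, with a median log2 fold change of -0.99. Of 5 lateral Kolliker's organ markers tested, Ctgf and Gjb2 were higher and Clu was lower, with a median of 0.34. Hair cell markers (15 genes) summed to 164 to 370 CPM in members and 331 to 394 CPM in other cells, with Atoh1, Fgf8, Gng8, Grxcr1, Lhfpl5 and Otof at 0, and Smpx, a muscle and hair cell protein, was the only one higher (38.3, 126 and 93.9 CPM, call lost without replicate 2 or 3, adjusted p = 0.396 and 0.584). Cells with Pou4f3 or Ccer2 had been left out of both groups, so these levels are not independent of the gate. Glia markers (7 genes) summed to 137 to 226 CPM against 174 to 230 CPM, with Foxd3 and Pmp22 at 0 and 0 genes called. Of 8 roof cell markers tested, Ttr was lower and Sparcl1 higher in members (818 ± 168 against 434 ± 36.0 CPM, call lost without replicate 2, adjusted p = 0.133). Ttr, Vmo1, Enpep and Dapl1 were at 0, the 8 markers summed to 1043 to 1246 CPM in members against 826 to 1170 CPM, and 28 of the 121 members held an Oc90 UMI, which the gate allows. Ttr averaged 96.4 CPM in other cells, at least 11.4-fold higher than the 8.42 CPM that 3 UMIs over all members would give. The 10 genes of the dissociation response summed to 5661, 8846 and 3412 CPM in members and to 3515, 3887 and 2770 CPM in other cells. Of these, Jun, Junb, Egr1 and Atf3 were higher in members, but without replicate 2 0 of the 4 passed in limma (adjusted p = 0.239, 0.846, 0.118 and 0.852). Junb did not pass without replicate 1 (0.0873) or 3 (0.0551) either, and Atf3 was lost without replicate 3 (0.421) and turned to a log2 fold change of -0.30 among cells with at least 2000 UMIs. The authors had left out cells rich in stress genes, and the part of these genes in the other results was not tested.

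Members were next set against 101 Npy-gated cells of inner pillar type (14, 35 and 52 by library). Matn4-gated cells were higher for 77 and lower for 49 of 8540 genes, 0.902% and 0.574% of them. Without replicate 3 the counts were 45 and 31, and without replicate 1 they were 115 and 74. Of 8 dissociation response genes tested, Fos, Jun, Junb, Egr1 and Ier2 were higher in members, with a median log2 fold change of 1.37 beside 0.03 for all genes, and the list summed to 1787 to 2459 CPM in Npy-gated cells. Without replicate 2 only Egr1 passed, and the part of these genes in the other results was not tested. Gjb2 stood at 32.2, 307 and 278 CPM in Npy-gated cells, in each library below its level in members (log2 fold change 4.30, SE 0.31, adjusted p = 3.37e-09). Lgals1, a galectin, stood at 769, 2763 and 2932 CPM against 15.1, 259 and 93.0 CPM. Mia, a secreted cartilage protein, averaged 2516 against 274 CPM, and Lum, a keratan sulfate proteoglycan, 1341 against 123 CPM. The matricellular gene Sparcl1 stood at 652, 988 and 813 CPM against 0, 46.3 and 25.7 CPM, and did not pass with a pseudocount of 1 CPM (adjusted p = 0.0516). Gjb2 and Lum are also Kolliker's organ markers. Of 5 lateral Kolliker's organ markers tested, Clu, Ctgf, Tecta and Gjb2 were higher in members and 0 lower, and of 7 medial ones Epyc, Dcn and Lum were higher and 0 lower (median log2 fold changes 1.52 and 2.40 beside 0.03 for all genes). The call of Tecta was lost without replicate 2 (adjusted p = 0.148) or 3 (0.414), and both lists were drawn partly from the study.

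Of 12 lateral supporting cell markers tested against Npy-gated cells, 9 were lower and 2 higher in members, with a median log2 fold change of -3.43 beside 0.03 for all genes. With a pseudocount of 1 CPM 4 of the 9 falls kept their call (Fam159b, S100b, Tectb and Gm45645), while Fgfr3 (adjusted p = 0.0753) and Ngfr (0.106) were among those that lost it, and neither rise kept its call. Fgfr3 stood at 33.3, 0 and 0 CPM against 593, 264 and 244 CPM (log2 fold change -4.41, SE 0.60, adjusted p = 5.41e-05). Ngfr, the p75 neurotrophin receptor of pillar cells, stood at 0, 36.0 and 3.91 CPM against 324, 361 and 354 CPM. Tectb, a tectorial membrane protein, averaged 163 ± 48.3 against 2030 ± 538 CPM (log2 fold change -3.56), and S100b 27.5 ± 19.3 against 456 ± 194 CPM. Etv4, a transcriptional target of FGF signalling, was at 0 in all 3 libraries of members and averaged 151 CPM in Npy-gated cells, at least 18-fold higher than the floor of 3 UMIs. Its call was lost without replicate 3 (adjusted p = 0.172). Several markers of this list were named by the study on these libraries, so the count is not independent evidence. S100a1 and Igfbp3 were the 2 markers of this list that were higher in members, S100a1 not without replicate 2 (adjusted p = 0.0542).

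The difference in Fabp7 from Npy-gated cells did not pass over all genes. It stood at 101, 2839 and 5.78 CPM in the latter, above members in replicate 2 and below them in replicates 1 and 3 (log2 fold change 2.44, SE 0.71, adjusted p = 0.112), and a Fabp7 UMI was found in 20% of the 35 Npy-gated cells of replicate 2 after drawing down (22.9% without). Hes5 (log2 fold change 0.41, adjusted p = 0.859) and Fgf20 (1.70, adjusted p = 0.544) did not pass either. Among genes given above as higher than in all other cells, Jag1, Lfng, Sox2, Gata3, Ntf3, Cdkn1b and Socs2 were not called here. Anxa5, Gjb2, Fgf3, Id4 and Fstl1 were higher here too. Of the 7 Notch target genes, 0 passed limma's test in this comparison, and 3 of the 7 had an unadjusted p under 0.05, as had 773 of all 8540 genes tested.

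**Figure D4:**
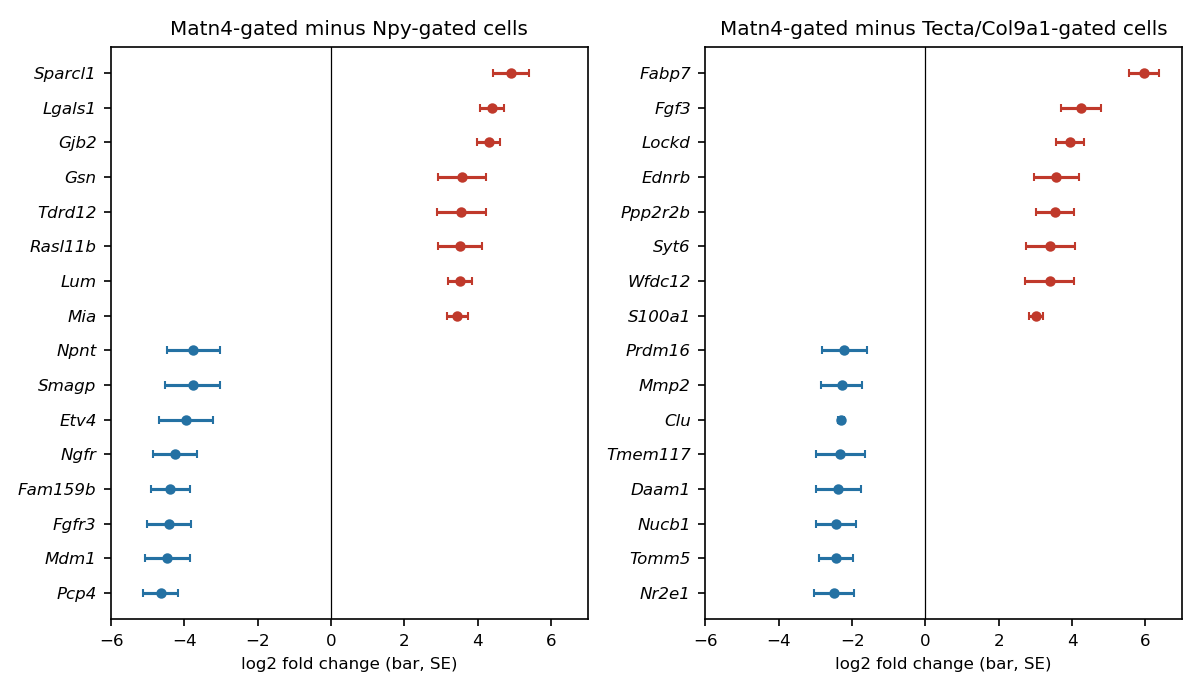
Log2 fold change with its SE (x axis) of the 16 genes named by rule in each of the comparisons with Npy-gated (left) and Tecta and Col9a1-gated (right) E16 cells; red points are higher and blue points lower in Matn4-gated cells. Gjb2, at 4.30, is among the rises over Npy-gated cells and Fabp7, at 5.95, heads those over Tecta and Col9a1-gated cells.

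Against 563 Tecta and Col9a1-gated cells of lateral Kolliker's organ (65, 157 and 341 by library), 108 of 8574 genes were higher and 84 lower, 1.26% and 0.98%. Without replicate 2 the counts were 50 and 25, without replicate 3 47 and 35, and without the library block 35 and 6. Of 8 dissociation response genes tested, Jun, Egr1 and Atf3 were higher in members (median log2 fold change 0.55 beside -0.08 for all genes), and without replicate 2 0 of these 3 passed in limma (adjusted p = 0.75, 0.454 and 0.455). Their part in the other results was not tested. Fabp7 stood at 0, 12.9 and 4.47 CPM in these cells (log2 fold change 5.95, SE 0.41, adjusted p = 7.32e-45). The choice of these cells left out any with a Matn4 UMI, and its part in this difference was not tested. Fgf20 passed here (log2 fold change 2.36, SE 0.70, adjusted p = 0.0377) but did not without replicate 2 (adjusted p = 0.477) or 3 (adjusted p = 0.506). Lockd stood at 12.7, 31.2 and 31.5 CPM (log2 fold change 3.94, SE 0.39), and S100a1 at 135, 212 and 396 CPM (log2 fold change 3.02, SE 0.19). Ppp2r2b, a phosphatase subunit, averaged 237 ± 117 CPM in members and 10.3 ± 7.94 CPM in Kolliker's organ cells. Among 8 lateral supporting cell markers tested, Emid1, S100a1, Igfbp3 and Socs2 were higher in members and Tectb was lower (median log2 fold change 1.17). In limma, Emid1 (adjusted p = 0.235) and Igfbp3 (0.0599) did not pass without replicate 2, nor Emid1 without replicate 3 (0.624).

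Clu, an extracellular chaperone abundant in Kolliker's organ, was the clearest fall in this comparison. It stood at 1651, 1644 and 2525 CPM in members and at 7714, 7677 and 13923 CPM in Tecta and Col9a1-gated cells (log2 fold change -2.30, SE 0.09, adjusted p = 1.69e-138). Gjb2 was 1321, 1339 and 1665 CPM in these cells, so that members were higher by a log2 fold change of 1.09 (SE 0.12), a smaller difference than from Npy-gated cells. Of 9 tectorial membrane genes tested, Tectb, Col2a1, Col9a2, Col9a3 and Col11a1 were lower and 0 were higher. Tecta and Col9a1, which belong to this list and chose the Kolliker's organ cells, were not tested. Choosing cells by these genes can raise others expressed with them, so the falls are not independent of the gate. The call of Col11a1 was lost without replicate 2 (adjusted p = 0.491). Hes5 (384 ± 407 against 128 ± 208 CPM, adjusted p = 0.000209) and Lfng (205 ± 85.4 against 53.7 ± 17.6 CPM, adjusted p = 0.00348) were higher, and both calls were lost without replicate 2 (0.636 and 0.23) or 3 (0.377 and 0.389). Sox2 was higher by 1.56 on the log2 scale (adjusted p = 0.000206) and did not pass without replicate 2 (0.0682).

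Fgf20-gated cells without Matn4, which carry the marker of medial prosensory cells, numbered 17 at E16 (5, 2 and 10 by library). Replicate 2 was left out for its 2 cells, so that 2 libraries remained. Members were higher for 9 and lower for 5 of 7759 genes, 0.116% and 0.0644%, with a median log2 fold change of 0.43 over all genes. Tectb stood at 1497 and 1502 CPM in Fgf20-gated cells and at 114 and 167 CPM in the matching members (log2 fold change -3.35, SE 0.66, adjusted p = 0.000599). Mia (log2 fold change 2.48), Itm2b (2.46) and Gjb2 (1.69) were higher in members. Of 11 named genes called here, 0 held their call in every alternative, and with a pseudocount of 1 CPM or without the library block 0 genes passed in either direction. Because these cells were so few, the comparison was repeated, after the data were seen, with 73 cells that held any Fgf20 UMI and no Matn4 in all 3 libraries. There 12 genes were higher and 5 lower. Fabp7 averaged 919 ± 112 CPM in members and 68.6 ± 48.8 CPM in those cells (log2 fold change 3.84, SE 0.54, adjusted p = 0.00153), and Tectb 163 ± 48.3 against 1473 ± 395 CPM (log2 fold change -3.10). Epyc, higher in members with 2 libraries, did not pass with 3 (adjusted p = 0.679).

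The genes found differed from member to member. How far missed UMIs account for this at 1500 UMIs per cell was not tested. After drawing down, Fabp7 and Gjb2 UMIs were found together in 60 members and Fabp7 without Gjb2 in 0, while 47 members held Gjb2 alone. Fabp7 and Hes5 were found together in 24 members, Fabp7 alone in 36, Hes5 alone in 13 and neither in 48. Hes5 differed widely between libraries, which these counts pool. Of the 14 members with any Fgf20 UMI before drawing down, 9 kept one, and 5 of these 9 also held Fabp7. The 68 members with a Fabp7 UMI before drawing down, at a median of 2903.5 UMIs per cell, averaged 2488 CPM of Matn4, 475 CPM of Sox2 and 1039 CPM of Clu. The 53 members without one, at a median of 2551 UMIs, averaged 1413 CPM of Matn4, 178 CPM of Sox2 and 3057 CPM of Clu. These 2 sets were divided by a measured gene and are given as a description, with no test. Calb1 stood at 16.9 CPM in the former and 205 CPM in the latter.

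The same gate was applied at the other ages. It took 302 P1 cells (88, 47, 57 and 110 by library), 129 P7 cells (61 and 68) and 15 E14 cells (7 and 8). The share of cells was 1.51% ± 0.452 (SD, n = 3) at E16 and 2.18% ± 0.165 (n = 4) at P1, and no E16 library reached the lowest P1 library. The exact permutation p, two-sided, was 0.0571, the smallest this design allows, so that the difference could not pass 0.05. Among cells with at least 2000 UMIs the libraries of the ages overlapped and the exact p was 0.114, and without E16 replicate 2 the difference fell from 0.675 to 0.419 percentage points. Each library is of 1 age, and age and library preparation cannot be told apart in this or the following comparison. P1 members were also deeper, with medians of 4076 to 7253.5 UMIs per cell.

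From E16 to P1, 34 of 8435 genes were higher and 58 lower in gated cells, 0.403% and 0.688%, with a median log2 fold change of 0.14 over all genes. Without E16 replicate 3 the first count was 88, and without P1 replicates 2, 3 or 4 it was 17 or 18. The second count was 37 without P1 replicate 3. Tectb was the largest rise, from 114, 210 and 167 CPM at E16 to 3501, 1637, 2042 and 1521 CPM at P1 (log2 fold change 3.61, SE 0.31, adjusted p = 3.97e-06). Gjb6 rose from 59.0, 202 and 294 CPM to 722, 483, 764 and 1343 CPM (log2 fold change 2.25, SE 0.43, adjusted p = 0.0085, but 0.0666 with a pseudocount of 1 CPM), while Gjb2 had a log2 fold change of 0.50 (adjusted p = 0.304). Fuca1, a lysosomal fucosidase, rose by a log2 fold change of 2.36 and Tspan8, a tetraspanin, by 2.28. Bmp4 fell from 54.3, 71.6 and 38.0 CPM to 1.40 CPM in P1 replicate 1 and 0 in the other P1 libraries, and did not pass without P1 replicate 2, 3 or 4, with a largest adjusted p of 0.0785 over all alternatives. Epyc fell from 976 ± 649 to 183 ± 45.4 CPM (log2 fold change -2.20, SE 0.37, adjusted p = 0.00344), and did not pass with a Matn4 threshold of 2.5 (adjusted p = 0.225). Polr2k (log2 fold change -2.48), Uqcrb (-2.53), Atp5k (-2.52) and Usmg5 (-1.96) were also among the falls named by rule, and kept their calls without any 1 library. In that order they averaged 260, 432, 359 and 594 CPM in gated cells at E16. At E14 they averaged 0, 88.8, 73.3 and 64.9 CPM in gated cells and 59.1, 77.3, 80.6 and 95.8 CPM in others. A steady fall with age is thus not shown, and none of them passed below as changing differently from all other cells. Ndufa3 (-1.98) did not pass without E16 replicate 2 (adjusted p = 0.0518) or 3 (0.0614) or P1 replicate 3 (0.0555). Ribosomal protein genes, left out of the naming by rule, held the largest falls of all and are given here after their values were seen: Rpl39 averaged 1571 ± 357 CPM at E16 and 134 ± 89.3 CPM at P1 (log2 fold change -3.61, limma adjusted p = 3.12e-05), and Rps29 averaged 3651 ± 601 and 465 ± 330 CPM (log2 fold change -3.14, adjusted p = 7e-05). Their changes in gated cells differed from those in all other cells by -0.05 and -0.24 on the log2 scale (adjusted p = 0.94 and 0.574), which did not pass.

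Of the markers of the E16 cells, Fabp7 stood at 4717, 2786, 1990 and 475 CPM at P1, a range that holds the E16 levels (log2 fold change 1.03, SE 0.48, adjusted p = 0.325). Hes5 (1.50, adjusted p = 0.341), Anxa5 (1.01, adjusted p = 0.275), Fgf20 (-0.64, adjusted p = 0.558) and Slc1a3 (0.69, adjusted p = 0.422) did not pass either. At P7, given without a test, Fabp7 stood at 460 and 1608 CPM and Ednrb at 385 and 559 CPM in gated cells, while Fgf3 and Fgf20 were at 0 in both libraries and Hes5 at 0 and 9.59 CPM. The P7 gated cells also held 844 and 1796 CPM of the mesenchyme marker Col3a1, against 131 and 445 CPM in other cells. Epcam, an epithelial adhesion gene, stood at 854 and 470 CPM against 2588 and 1688 CPM. These P7 levels therefore cannot be read as those of inner phalangeal cells alone. At E14 the 15 gated cells held 269 and 244 CPM of Fgf3 and 3505 and 2894 CPM of Gjb2, with Fabp7 at 47.0 and 0 CPM and Hes5 at 0 in both. Other E14 cells averaged 5.20 CPM of Fabp7 and 1.14 CPM of Hes5. The E14 gated cells gave only 28060 and 23861 UMIs by library, so that such low levels cannot be told from 0.

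To see which changes were larger or smaller in the gated cells than in their surroundings, the change from E16 to P1 in gated cells was compared with that in all other cells. The difference passed for 15 of 8435 genes, with 8 changes more positive in gated cells (0.0948%) and 7 more negative (0.083%). Without 1 library, 3 to 25 genes were more positive and 4 to 18 more negative, with the highest counts without E16 replicate 3 (25 more positive) and E16 replicate 1 (18 more negative) and the lowest without P1 replicate 2 (3 and 4). The genes named here were chosen after their values were seen. Clu changed by 0.74 on the log2 scale in gated cells and by 2.27 in other cells, a difference of -1.53 (SE 0.17, adjusted p = 0.000929). Ccnd1, cyclin D1, stayed near 172 and 192 CPM in gated cells and went from 122 to 28.4 CPM in the others (difference 1.92, SE 0.27, adjusted p = 0.00628). Itm2a went from 92.9 to 128 CPM in gated cells and from 104 to 651 CPM in the others (difference -2.08, SE 0.30). Epyc and Crabp1 went down in gated cells and up in the others on average (differences -2.63 and -2.39), and Tectb went up in both, by 3.61 and 1.85. Calls of Clu, Ccnd1 and Itm2a held in all 13 alternatives tried. Those of Epyc and Tectb were lost in 2 and 1 of them, and that of Crabp1 in 9, among them without E16 replicate 3 (adjusted p = 0.0651) and without each P1 library in turn (0.0935 to 0.138).

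**Figure D5:**
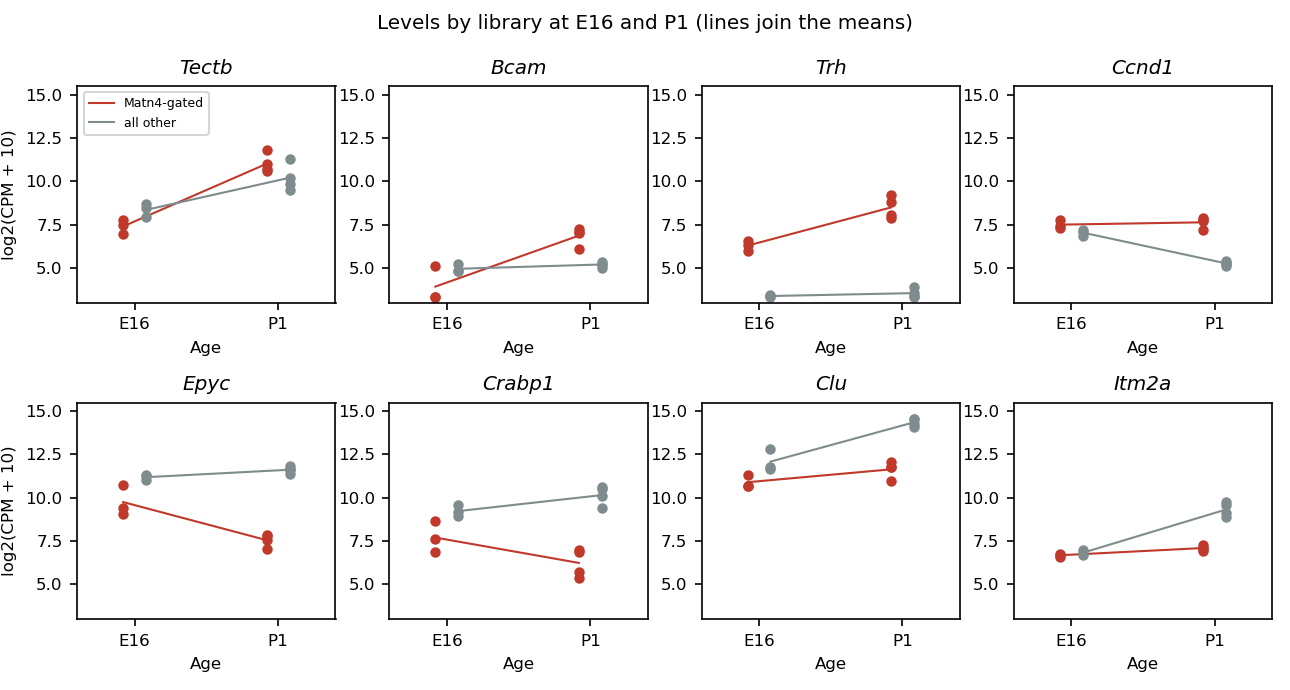
Levels as log2(CPM + 10) (y axis) of 8 genes in Matn4-gated cells (red) and all other cells without Pou4f3 and Ccer2 (grey) at E16 (3 libraries) and P1 (4 libraries); points are libraries and lines join the means. Clu and Itm2a rise more steeply in the other cells, Ccnd1 falls in the other cells, and Tectb and Bcam rise more steeply in the gated cells. Bcam averages under the level of 3 UMIs in the E16 gated cells. Trh lies under the added 10 CPM in the other cells, where its line is flat for that reason.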

How the data were processed

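The authors aligned reads to mm10 with Cell Ranger 2.1.1, filtered cells in Seurat 2.0 (versions from the submitters' processing notes) on genes, UMIs, mitochondrial and stress gene content, and deposited natural log values, ln(1 + 10000 × UMI share), per gene and cell. The natural base was read from the values, since the methods do not give it, and UMIs worked back from them were whole within 2% for 100% of values above 0. The lowest E16 cell has 1499 UMIs. Raw counts were not analysed here, so no count model was used.

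For each library, a class of 5 or more cells gave 1 profile, the mean CPM of its cells. Profiles were taken to log2(CPM + 10) and fitted in limma (3.58.1, under R 4.3.3) with a mean trend. Genes averaging under 10 CPM were not tested, and p-values were adjusted over all others (Benjamini-Hochberg, threshold 0.05). Both classes of a library come from the same pool of animals, so library was a block, and gate genes were not tested. Fold changes of low genes are understated by the added 10 CPM. Each cell was drawn down to 1500 UMIs for the shares of cells with a UMI, with exact intervals that cover counting error only. No doublet caller was run, and cells of more than 3000 genes were left out in an alternative. Leaving out each library, a pseudocount of 1 CPM, no filter, pooled UMIs, no library block, cells with at least 2000 UMIs and a Matn4 threshold of 2.5 were the other alternatives. Fits were also run on simulated data with a dispersion of 0.02. There, both classes of a library shared its simulated effect, which the block removes in the comparisons within E16. Wide spread between libraries in 1 class, as seen for Hes5, was not simulated, so these runs do not vouch for the adjusted p-values. Genes were named as the 12 largest rises and falls against all other cells that moved the same way in all 3 libraries, 8 for each neighbour and 12 between ages where libraries did not overlap, besides the genes of 32 lists, leaving out ribosomal, mitochondrial, haemoglobin, Gm-numbered genes, Xist and Tsix. The members, gates and lists were chosen with earlier results of these data known. Genome coordinates of the promoters are those of RefSeq on GRCm38.p6.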

Additional observations from a re-analysis of the deposited data

Results flagged for a closer look

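In P1 gated cells, 53 groups of values over the 4 libraries were tested, those of genes and the share of cells in the gate. Of these, 4, all of genes, had a library far from the others, in each case replicate 1. Chance flags about 1 in 20 such groups. AC121965.1 stood at 128 CPM in that library against 28.5 to 45.0 CPM in the others. Atp5k stood at 151 CPM against 28.7 to 45.2 CPM. Bmp4 stood at 1.40 CPM against 0 in the others, under the floor of 3 UMIs, so that no difference between libraries is shown for it. Malat1, a nuclear noncoding RNA, stood at 4648 CPM against 8571 to 9261 CPM.

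For 15 genes the change from E16 to P1 differed between the gated and the other cells by limma's interaction test. The log2 difference was positive for Bcam (2.69), Pxn (2.63), Plet1 (2.12), Trh (2.04), Ccnd1 (1.92), Tectb (1.76), Gas2 (1.02) and Skp1a (0.95). Bcam, a laminin receptor, averaged 8.31 CPM at E16 and 111 CPM at P1 in gated cells, and 21.2 and 26.9 CPM in the others. Trh averaged 69.2 and 377 CPM in gated cells and 0.403 and 1.83 CPM in the others, where it lies under the added 10 CPM and its change is held near 0, so that the test does not show a different change for Trh. Its call was lost with a pseudocount of 1 CPM. The log2 difference was negative for 1500015O10Rik (-2.74), Epyc (-2.63), Crabp1 (-2.39), Itm2a (-2.08), Clu (-1.53), Pdia6 (-0.83) and Malat1 (-0.63). 1500015O10Rik averaged 879 and 353 CPM in gated cells and 2728 and 7440 CPM in the others. Of the 15 calls, 3 (Ccnd1, Clu and Itm2a) held in all 13 alternatives, and age and library preparation cannot be told apart.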

How the results depend on the processing

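The counts, higher then lower in Matn4-gated cells, were 121 and 101 against all other cells, 77 and 49 against Npy-gated, 108 and 84 against Tecta and Col9a1-gated and 9 and 5 against Fgf20-gated cells, 34 and 58 from E16 to P1, and 8 and 7 for the difference between changes. In that order, a pseudocount of 1 CPM gave 66 and 25, 17 and 8, 65 and 42, 0 and 0, 8 and 28, and 1 and 2. Without the filter on low values the counts that moved by over 1.5 times were 38 and 10, 30 and 21, 14 lower against Fgf20-gated cells, 15 higher at P1, and 21 and 18. Cells with at least 2000 UMIs gave 67 and 49, 40 and 24, 55 and 47, 18 and 35, and 2 and 4, with the comparison to Fgf20-gated cells not run for want of a second library. A Matn4 threshold of 2.5 gave 15 lower against Fgf20-gated cells, 15 and 37 at P1, and 2 and 4 for the difference, and pooled UMIs gave 4 higher for the difference. Without the replicate block, which pairs the classes of a library, the counts were 25 and 3 against all other cells, 35 and 6 against Tecta and Col9a1-gated cells and 0 and 0 against Fgf20-gated cells, and 80 and 38 against Npy-gated cells. No paired analysis was possible between ages, because the same number stands for other animals there. Leaving out 1 library gave 58 to 175 and 28 to 145, 45 to 115 and 31 to 74, 47 to 143 and 25 to 112, 17 to 88 and 37 to 79, and 3 to 25 and 4 to 18, and was not possible with the 2 libraries of Fgf20-gated cells. Where limma called 0 genes against Fgf20-gated cells, 1368 (pseudocount of 1 CPM) and 564 (no block) had an unadjusted p under 0.05. The causes of these shifts were not tested. Against all other cells, 18 of 66 named genes kept their call in every alternative (Anxa5, Calb1, Ednrb, Fabp7, Fgf3, Fstl1, Gjb2, Id4, Igf1, Jag1, Lockd, Prss23, S100a1, Slitrk6, Smpdl3a, Socs2, Sox2 and Tdrd12). The same held for 15 of 49 against Npy-gated, 12 of 50 against Tecta and Col9a1-gated and 0 of 11 against Fgf20-gated cells, and for 8 of 30 from E16 to P1. Against all other cells 209 of 726 values were no longer past the threshold, and 1 reversed (Atf3, -0.30 with at least 2000 UMIs). The difference in the share of cells between ages, 0.675 percentage points, ranged from 0.419 to 0.844 in its alternatives. The few UMIs of members in replicates 1 and 2 limit what can be said of genes under about 100 CPM.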
